A study of Mus musculus with 6 samples.

Results

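Colony-stimulating factor receptors and the receptors of other early blood cytokines were followed in GMPs (granulocyte-macrophage progenitors), the marrow cells from which granulocytes and monocytes arise. The 8 genes, Csf1r, Csf2ra, Csf2rb, Csf2rb2, Csf3r, Flt3, Il3ra and Il6ra, were taken by symbol from a table of 37620 genes. All 8 were found and all 8 passed the filter on low values. They were measured by RNA sequencing in 3 libraries whose labels say Bap1 knockout (genotype MX1+ Cre Bap1 f/f) and 3 control libraries (Bap1 f/f, no Cre), all from C57BL/6 mice. Bap1 encodes a deubiquitinase that removes ubiquitin from histone H2A. Both groups carried floxed Bap1 and both were given polyI:polyC, which switches on the interferon-responsive Mx1 promoter that drives Cre. That promoter is not specific to GMPs, and because only the knockout-labelled mice carried Cre, effects of Cre and of Bap1 deletion cannot be told apart. The age on the labels is 65 days, with injection at 42 days of age, while the design text of the series puts the injection earlier. Whether every library stands for a separate mouse is not stated on the labels, so p-values measure the spread between these libraries, which may be technical.

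These receptors relay the growth factors on which myeloid progenitors depend. CSF1R and FLT3 are receptor tyrosine kinases, for M-CSF and FLT3 ligand. The others belong to the cytokine receptor family and have no kinase of their own, so they signal through bound JAK kinases and STAT factors. CSF2RA and IL3RA bind GM-CSF and IL-3 and share the beta chain CSF2RB, while mice also have another beta chain, CSF2RB2, which serves IL-3. CSF3R binds G-CSF, the main cytokine of neutrophil production, and IL6RA binds IL-6 and signals through IL6ST (gp130).

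Gene reads came to 19464353 to 24085250.0 per knockout-labelled library and 24125905 to 25901725 per control library. Values are normalized counts (counts per gene over the authors' size factor of the library), so that 1 read was worth 0.889 to 1.14. Bap1 itself stood at 2671, 3309 and 2968 normalized counts in the libraries labelled knockout and at 1343, 998 and 1076 in control libraries (log2 fold change 1.39, limma adjusted p = 6.07e-05), the opposite of what the labels imply. The value covers all exons, those outside the floxed part too, so it is no check of the deletion. Every direction given here is therefore that of the libraries labelled knockout. Mpo, the myeloperoxidase gene that marks GMPs, was abundant in all 6 libraries, at 513034 to 758797 normalized counts in knockout-labelled and 488642 to 523637 in control libraries. Of 9 tested genes of the sort gate and the primary granules 4 rose and 2 fell, and 2 rose without control replicate 1 or 3. Among all genes tested, 11.8% rose and 15.0% fell. The gate gene Cd34 was 2.90-fold lower in the knockout-labelled libraries (limma adjusted p = 5.04e-06).

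Of the 8 receptor genes 1 fell and 0 rose in the knockout-labelled libraries (limma adjusted p over all 14391 genes tested). Over all genes tested, 15.0% fell and 11.8% rose, 26.8% in all, so the share of the receptor genes that passed, 12.5%, was not above the background. Without control replicate 2 the counts over all genes were 1422 lower and 1058 higher, and without control replicate 3 they were 1413 lower and 1105 higher, against 2163 lower and 1695 higher with all 6 libraries; after GC and length correction they were 1985 lower and 2591 higher, with more genes higher than lower. At an unadjusted p under 0.05 the receptor genes counted 2 lower and 1 higher, or 37.5%, against 39.1% of all genes tested (20.9% lower and 18.2% higher). Without knockout-labelled replicate 1 Csf2rb also passed as higher. In edgeR 1 was lower and 0 were higher, against 26.1% of all genes called (14.4% lower and 11.7% higher). In DESeq2 2 were lower and 1 was higher, or 37.5%, against 29.8% of all genes called (15.9% lower and 13.9% higher). The knockout-labelled and control values did not overlap for 3 of the 8 genes, Csf1r, Il6ra and Flt3, or 37.5%, against 42.9% of all genes tested. By direction, 1 of the 8 was higher without overlap, against 20.4% of all genes tested, and 2 were lower, against 22.5%.

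**Figure D1:**
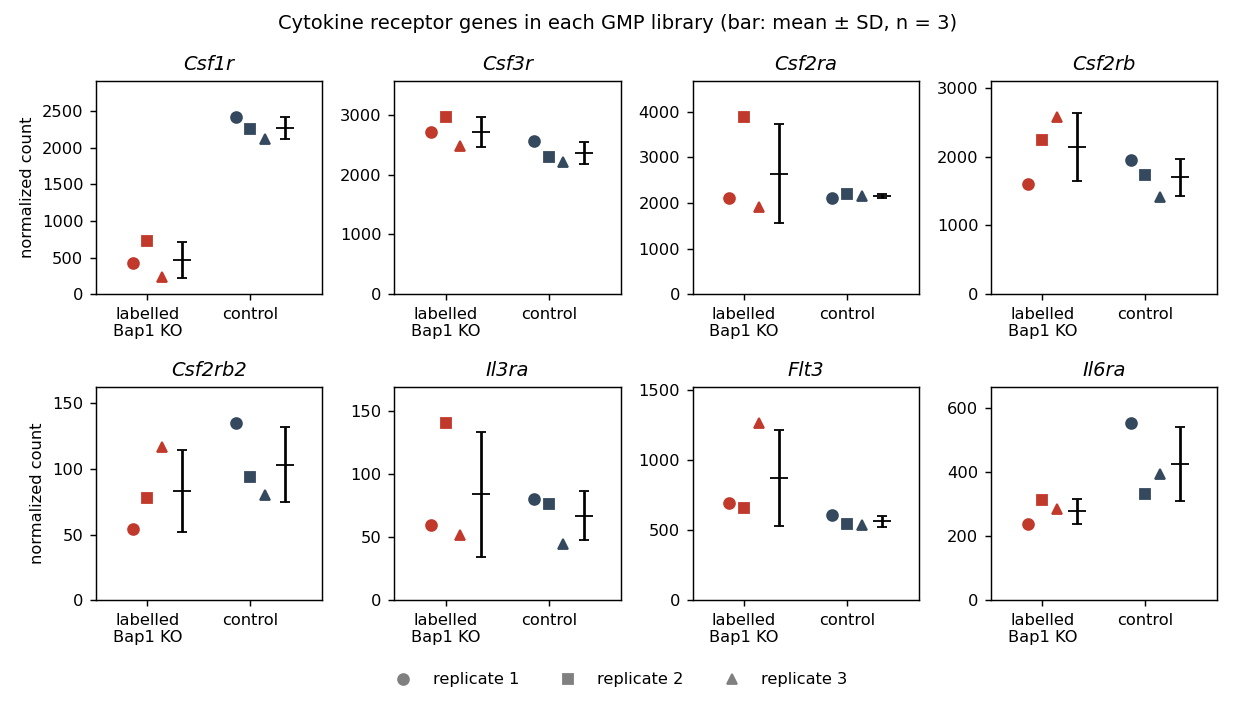
Normalized counts of the 8 receptor genes (y axis, linear, from 0) in the 3 libraries labelled Bap1 knockout (red, left) and the 3 control libraries (dark blue, right), with the symbol giving the replicate and the bar the mean ± SD (n = 3). Csf1r lies at 238 to 724 in knockout-labelled and 2121 to 2426 in control libraries, while the groups of Csf3r, Csf2ra, Csf2rb, Csf2rb2 and Il3ra overlap.

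Csf1r, the M-CSF receptor gene of monocytes and macrophages (ENSMUSG00000024621), was the receptor gene that passed the test. It stood at 431, 724 and 238 normalized counts in libraries labelled knockout, against 2426, 2263 and 2121 in the control libraries. All knockout-labelled values were far below all control values, and they differed among themselves by more than the control values did. The means were 464 ± 245 in knockout-labelled and 2270.2 ± 153 in control libraries (SD, n = 3 each), with a log2 fold change of -2.43 and an SE of 0.30 (limma adjusted p = 0.000199). That is 5.39-fold lower, with a 95% interval of 3.41- to 8.50-fold. Without the knockout-labelled library with the highest value, replicate 2, it was 7.07-fold lower (limma adjusted p = 0.000131), and without the lowest, replicate 3, it was 4.05-fold lower (0.000100).

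Genes of monocytes and macrophages moved with Csf1r. Of 10 tested genes of that list other than Csf1r, 8 fell and 1 rose in the knockout-labelled libraries. Among all genes tested, 15.0% fell and 11.8% rose. The median log2 fold change of the 10 was -2.14, against 0.01 over all genes tested. Without knockout-labelled replicate 3, 2 of the 10 rose. The fractalkine receptor gene Cx3cr1 stood at 29.9, 28.1 and 7.99 normalized counts in knockout-labelled libraries, against 571, 535 and 450.1 in control libraries. The gene that rose was Cd68, a lysosomal marker of macrophages, at 3259.9, 3266 and 3832 in knockout-labelled and 1549, 1507 and 1453 in control libraries. Summed without Csf1r, the list came to 55334 to 107898 in knockout-labelled and 82011 to 92967 in control libraries. Most of that sum was Ly6c2, a surface antigen of monocytes and other myeloid cells, at 46716 to 98227 in knockout-labelled and 57137 to 66624 in control libraries. Without Ly6c2 the sum was 8618 to 10184 in knockout-labelled and 24874 to 26343 in control libraries. None of the list's genes was at 0 in every library of a group. In bulk RNA, fewer cells of a type and less RNA per cell cannot be told apart, and the part of the monocyte genes in the Csf1r result was not tested. Hmgxb3, a gene on the other strand that shares 873 exon bases with Csf1r, stood at 113 to 249 in knockout-labelled and 156 to 239 in control libraries, and whether the counting used strand is not stated in the labels.

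Csf3r, the G-CSF receptor gene (ENSMUSG00000028859), stood at 2711, 2972 and 2473 normalized counts in knockout-labelled libraries, against 2563, 2296 and 2218 in control libraries. The groups overlapped, since knockout-labelled replicate 3 was below control replicate 1. Its log2 fold change, 0.20 with an SE of 0.12 (limma adjusted p = 0.241), had a 95% interval of -0.06 to 0.47. The level of Csf3r relative to Csf1r, both per kilobase of exon, was 10.1, 6.57 and 16.7 in knockout-labelled libraries and 1.69, 1.62 and 1.67 in control libraries. Of 12 tested neutrophil genes 2 rose, Lcn2 and Cebpe, and the others did not pass, against 11.8% higher and 15.0% lower over all genes tested. Without knockout-labelled replicate 3, 8 rose and 2 fell, and without knockout-labelled replicate 2, 1 fell. Their summed level was 123201 to 350141 in knockout-labelled and 152150.0 to 205212 in control libraries.

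The promoters of Csf3r and Csf2ra are shown because these were the most abundant receptor genes per length in both groups and because Spi1, the gene of the ETS factor PU.1, which acts on myeloid receptor genes, was measured in the same libraries. Capitals mark AGGAAG on either strand, a core that ETS factors such as PU.1 bind, in the 250 bases before the start (RefSeq, GRCm38.p6).
Csf3r, chr4:126024409-126024658, plus strand: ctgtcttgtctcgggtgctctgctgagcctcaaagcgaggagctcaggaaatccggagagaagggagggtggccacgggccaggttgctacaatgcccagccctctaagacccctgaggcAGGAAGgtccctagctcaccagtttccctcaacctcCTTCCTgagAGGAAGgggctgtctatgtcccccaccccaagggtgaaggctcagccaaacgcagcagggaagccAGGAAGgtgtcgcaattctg
Csf2ra, chr19:61228419-61228668, minus strand: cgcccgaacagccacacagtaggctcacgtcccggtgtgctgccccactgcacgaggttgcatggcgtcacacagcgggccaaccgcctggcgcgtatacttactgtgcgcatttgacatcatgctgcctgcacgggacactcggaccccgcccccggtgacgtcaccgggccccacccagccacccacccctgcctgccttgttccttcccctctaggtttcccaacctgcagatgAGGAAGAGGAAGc
The Csf3r window held 4 matches, the nearest 20 bases before the start, and the Csf2ra window held 2, at 13 and 7 bases before it. AGGAAG occurred in 29.5% of all 32851 promoter windows of this length. RefSeq windows were matched for 6 of the 8 receptor genes, of which Il6ra, Il3ra and Csf2rb2 had 1 match each and Flt3 had 0. Csf1r, the receptor gene that passed the test, and Csf2rb had no matched window, so the motif counts do not cover them. TTGCNNAA, a core of C/EBP sites, was found in the Il3ra window, beside and not overlapping the AGGAAG match, and in 9.56% of all windows. TGTGGT, a RUNX core, was in 0 of the 6 windows and in 14.0% of all windows. Both strands were searched for each motif, and a match is a run of letters, not a bound site.

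Csf2ra, the ligand-binding chain for GM-CSF (ENSMUSG00000059326), stood at 2116, 3896 and 1915 normalized counts in knockout-labelled libraries, against 2101, 2206 and 2146 in control libraries. Replicate 2 was far above the control values and the other knockout-labelled libraries were not. The coefficient of variation was 41.3% in the knockout-labelled and 2.45% in the control group. The log2 fold change was 0.22 (SE 0.22, limma adjusted p = 0.484, 95% interval -0.25 to 0.70), and without knockout-labelled replicate 2 it was -0.10 (0.603).

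Il3ra, the ligand-binding chain for IL-3 (ENSMUSG00000068758), was low, at 59.7, 141 and 51.4 normalized counts in knockout-labelled libraries and 80.0, 76.4 and 44.6 in control libraries. Replicate 2 was again the highest knockout-labelled library, and the groups overlapped. With 45 to 135 reads per library, its log2 fold change, 0.22 with an SE of 0.42 (limma adjusted p = 0.741), had a wide 95% interval of -0.71 to 1.15. It was -0.22 without knockout-labelled replicate 2 and -0.05 without control replicate 3.

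Csf2rb, the beta chain shared by the GM-CSF, IL-3 and IL-5 receptors (ENSMUSG00000071713), stood at 1605, 2248 and 2584 normalized counts in knockout-labelled libraries, against 1952, 1735 and 1415 in control libraries. Replicates 2 and 3 of the knockout-labelled group were above every control library and replicate 1 was not. The log2 fold change was 0.32 (SE 0.18, limma adjusted p = 0.217, 95% interval -0.08 to 0.72), and without knockout-labelled replicate 1 it was 0.52 and passed (limma adjusted p = 0.0318). Csf2rb2, the IL-3 beta chain (ENSMUSG00000071714), stood at 54.4, 78.1 and 116 in knockout-labelled libraries and 135, 93.6 and 80.2 in control libraries. Its groups overlapped (log2 fold change -0.34, SE 0.35, limma adjusted p = 0.507, 95% interval -1.11 to 0.43), and that value was -0.07 without knockout-labelled replicate 1, -0.13 without control replicate 1 and -0.62 without knockout-labelled replicate 3.

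The beta chains are near copies on chromosome 15. Reads with several alignments were counted for no gene, so reads of shared stretches may be lost and both counts are uncertain. Their coding sequences, the longest open reading frames of 2691 bases (Csf2rb) and 2637 bases (Csf2rb2), were identical at 95.2% of 2631 aligned bases, with a longest identical run of 242 bases. Of all 25-base stretches of the longest Csf2rb transcript 32.6% were shared with Csf2rb2, and of 100-base stretches 6.96%. The 60 aligned coding bases with the most differences are printed to show the letters by which reads of the pair can be assigned. The 13 bases that differ are in capitals, and positions count from the A of the start codon.
Csf2rb, coding bases 304 to 363: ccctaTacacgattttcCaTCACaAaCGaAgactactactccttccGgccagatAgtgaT
Csf2rb2, coding bases 307 to 366: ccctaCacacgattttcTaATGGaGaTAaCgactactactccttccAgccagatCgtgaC
Csf2rb2 took 3.28, 3.36 and 4.31% of the reads of the pair in knockout-labelled libraries and 6.47, 5.12 and 5.36% in control libraries. With both genes summed into 1, the log2 fold change was 0.29 (limma adjusted p = 0.270), and without knockout-labelled replicate 1 it was 0.49 and passed (limma adjusted p = 0.0414).

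Genes of the basophil, mast cell and eosinophil lineages, which respond to IL-3 and IL-5, were measured beside these chains. Il5ra, the ligand-binding chain for IL-5, stood at 75.7, 43.7 and 89.1 normalized counts in knockout-labelled libraries, against 80.9, 102 and 125 in control libraries (limma adjusted p = 0.229). Of 9 tested basophil and mast cell genes 5 fell and 1 rose, and their sum was 20066 to 29981 in knockout-labelled and 50886 to 61209.9 in control libraries. The basophil protease gene Prss34 stood at 953, 571 and 1149.9 in knockout-labelled and 24252, 28555 and 30820.2 in control libraries, while another, Mcpt8, was higher, at 8601 to 13369.6 in knockout-labelled and 6151 to 8315 in control libraries (limma adjusted p = 0.0168). Without Prss34 the sum of the list was 19496 to 28831 in knockout-labelled and 25549 to 30389.7 in control libraries, and the groups overlapped. Of 9 eosinophil genes 5 fell and 1 rose, with a sum of 31701 to 34856 in knockout-labelled and 48073 to 58199 in control libraries. For both lists the background over all genes tested was 15.0% lower and 11.8% higher. Without control replicate 1 or 2, 0 of the basophil and mast cell genes rose in limma, Mcpt8 being at adjusted p values of 0.0715 and 0.0711, and without knockout-labelled replicate 3 or control replicate 1, 2 of the eosinophil genes rose. The part of these genes in the values of Il3ra and the beta chains was not tested.

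Flt3, the receptor tyrosine kinase of multipotent, lymphoid and dendritic progenitors (ENSMUSG00000042817), stood at 691, 656 and 1266 normalized counts in knockout-labelled libraries, against 605, 547 and 536 in control libraries. The groups did not overlap, but replicates 1 and 2 of the knockout-labelled group were close to the control values and replicate 3 was far above them. The means were 871 ± 343 in knockout-labelled and 562 ± 37.3 in control libraries (SD, n = 3 each), and the log2 fold change of 0.56 (SE 0.23, 95% interval 0.07 to 1.06) did not pass (limma adjusted p = 0.0870). It passed in DESeq2 (0.0294), in limma after a correction for GC content and length (0.0335) and in limma with the sex of the library as a covariate (0.0325). Without knockout-labelled replicate 3 it was 0.26 (limma adjusted p = 0.248).

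Genes of dendritic cells, which depend on FLT3 ligand, were mostly lower. Of 10 tested dendritic cell genes other than Flt3, 7 fell and the others did not pass. Their median log2 fold change was -2.64, and 4 fell without control replicate 3. Over all genes tested 15.0% fell and 11.8% rose, the background for each list of this paragraph. H2-DMa, a chain of the peptide-loading protein of MHC class II, stood at 516, 633 and 493 normalized counts in knockout-labelled and 4364, 4125 and 3917 in control libraries. Summed without Flt3, the list came to 1164 to 3647 in knockout-labelled and 10299 to 19799 in control libraries. Of 9 tested genes of stem and multipotent progenitors other than Flt3, 4 fell and the others did not pass, and Procr had 0 reads in all 3 knockout-labelled libraries. Their summed level without Flt3 was 7520.2 to 7881 in knockout-labelled and 10998 to 11528 in control libraries. Most of that sum was Cd48, at 6262 to 6777 in knockout-labelled and 9299 to 9707 in control libraries. Without Flt3 and Cd48 the sum was 849 to 1502 in knockout-labelled and 1698 to 1916 in control libraries. Of 8 tested B lymphoid genes 7 fell. Their list summed to 1117 to 1426 in knockout-labelled and 2249.8 to 2651 in control libraries, most of it Cd79b, a chain of the B cell receptor, and without Cd79b to 105 to 122.9 in knockout-labelled and 594 to 698 in control libraries. Vpreb3, a B cell precursor gene, had 0 reads in all 3 knockout-labelled libraries and 45.5 to 77.4 normalized counts in control libraries; Pax5 and Rag1, also at 0 in the knockout-labelled libraries, were too low to be tested, at 3.82 to 6.22 and 0 to 3.57 in control libraries. The part of these genes in the Flt3 values was not tested.

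Il6ra, the ligand-binding chain for IL-6 (ENSMUSG00000027947), stood at 237, 312 and 283 normalized counts in knockout-labelled libraries, against 554, 331 and 393 in control libraries. Every knockout-labelled value was below every control value, although replicate 2 of either group was close to replicate 2 of the other. The means were 277 ± 38.1 in knockout-labelled and 426 ± 115 in control libraries (SD, n = 3 each). The log2 fold change of -0.59 (SE 0.22, 95% interval -1.08 to -0.11) did not pass in limma (adjusted p = 0.0682), but did in DESeq2 (adjusted p = 0.0404). Without control replicate 1, the highest library, it was -0.39 (limma adjusted p = 0.277). Il6st, the signalling chain that the IL-6 receptor shares with the receptors of related cytokines, did fall. It stood at 44.8, 63.5 and 61.7 normalized counts in knockout-labelled libraries, against 307, 309 and 205 in control libraries, 4.74-fold lower (log2 fold change -2.24, SE 0.28, limma adjusted p = 0.000205). The difference between the change of the signalling chain and that of the binding chain was not tested.

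**Figure D2:**
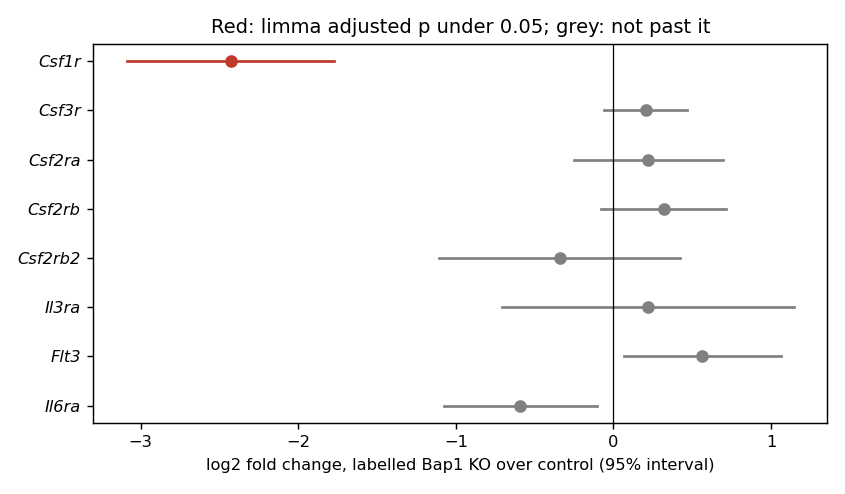
Log2 fold change of each receptor gene (x axis, knockout-labelled over control) with its 95% interval from limma; red passes an adjusted p of 0.05 and grey does not. Csf1r, at -2.43, lies apart from the others, which lie between -0.59 (Il6ra) and 0.56 (Flt3).

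Per kilobase of exon, the place of Csf1r in the order of levels differed between the groups while the order of the other receptor genes was the same. In the knockout-labelled libraries the order of the mean levels was Csf2ra (920.4 ± 379.7 normalized counts per kilobase), Csf3r (753 ± 69.2), Csf2rb (295 ± 68.3), Flt3 (141 ± 55.5), Csf1r (80.4 ± 42.4), Il6ra (32.1 ± 4.41), Il3ra (28.3 ± 16.6) and Csf2rb2 (17.5 ± 6.61; SD, n = 3). The ranges of Csf2ra and Csf3r overlapped, as did those of Flt3 and Csf1r and of each neighbouring pair among Il6ra, Il3ra and Csf2rb2. In control libraries the order was Csf2ra (749 ± 18.3), Csf3r (654 ± 50.2), Csf1r (393 ± 26.4), Csf2rb (234 ± 37.1), Flt3 (91.1 ± 6.04), Il6ra (49.3 ± 13.3), Il3ra (22.6 ± 6.57) and Csf2rb2 (21.7 ± 6.03; SD, n = 3), where of neighbours only Il3ra and Csf2rb2 overlapped. Csf1r made up 3.82, 4.44 and 2.03% of the summed level of the 8 genes per kilobase in knockout-labelled libraries and 17.9, 17.8 and 17.6% in control libraries. That sum was 1954, 2821 and 2028 normalized counts per kilobase in knockout-labelled libraries and 2348, 2207 and 2088 in control libraries. With the length of the longest transcript in place of all exons, Il3ra stood above Il6ra in knockout-labelled libraries and the order was otherwise the same. Levels are a description, with no test between genes.

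**Figure D3:**
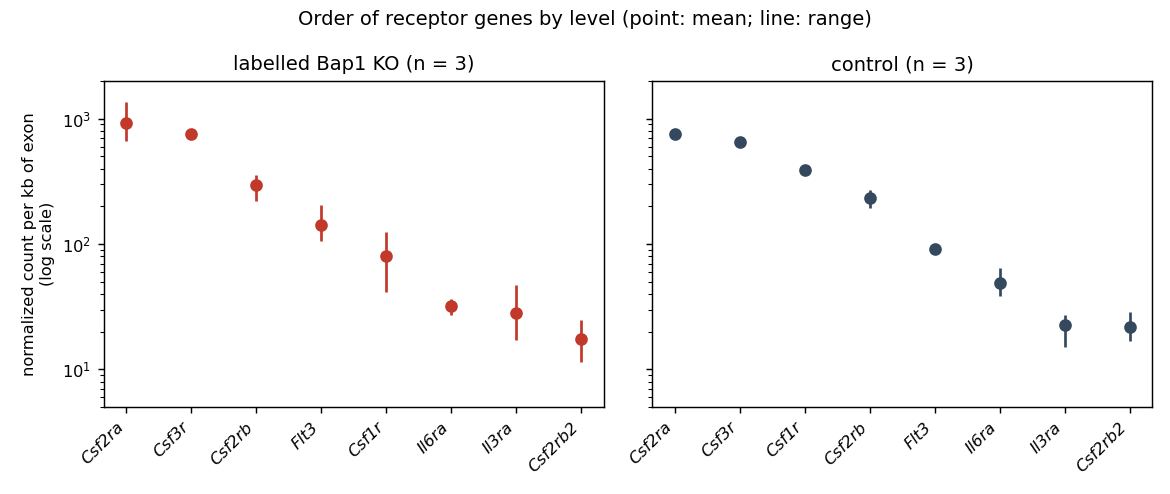
Level of each receptor gene per kilobase of exon (y axis, log scale) in the libraries labelled Bap1 knockout (left) and in control libraries (right), ordered by mean; points are means and lines the range over 3 libraries. Csf1r is the fifth in knockout-labelled libraries, at 80.4, and the third in control libraries, at 393.

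Spread between libraries was wider in the knockout-labelled group. The coefficient of variation was larger in the knockout-labelled group for 7 of the 8 receptor genes, Il6ra being the exception, and for 67.8% of all genes tested. Csf1r had 52.7% in knockout-labelled and 6.73% in control libraries, and Csf3r had 9.18% in knockout-labelled and 7.68% in control libraries. Of the 8 genes, 5 were highest among knockout-labelled libraries in replicate 2 (Csf1r, Csf2ra, Csf3r, Il3ra and Il6ra) and 3 in replicate 3 (Csf2rb, Csf2rb2 and Flt3). Replicate 3 was the shallowest library, and by Xist and Y-linked genes it was female where the other knockout-labelled libraries were male; among the control libraries replicate 1 was female. Replicate 3 was also the lowest of the knockout-labelled libraries in summed neutrophil genes, at 123201 against 316521 and 350141 in replicates 1 and 2. It was the highest in summed erythroid and megakaryocyte genes, at 5208 against 2208 and 2663, where control libraries stood at 2573 to 4342. Much of the sum in replicate 3 was Itga2b, at 2526. Without Itga2b the sum of the list was 2682 in replicate 3 and 1429 and 1676 in replicates 1 and 2. Control libraries then stood at 1997 to 3515. Of the 9 tested genes of that list 2 rose (Epor and Hba-a1) and 1 fell (Pf4), against 11.8% and 15.0% of all genes tested. The number that rose was 4 without knockout-labelled replicate 1, and 1 without knockout-labelled replicate 2 or 3 or control replicate 2. Without knockout-labelled replicate 3, 2 fell. The part of these differences in the receptor values was not tested.

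For each receptor gene, the 3 genes most like it over the 6 libraries were taken by Pearson's r of log2 values, among 10359 tested genes with a mean of at least 100 normalized counts. For Csf1r they were Icam2 (0.998), Eif2ak1 (0.998) and Aph1c (0.998). Of these, Aph1c, which encodes a gamma-secretase subunit, stood at 26.7, 56.2 and 13.7 normalized counts in knockout-labelled and 341, 353 and 293 in control libraries. Csf3r was most like Cenpx (0.983), Commd9 (0.982) and Rpl13a (0.980), and Csf2ra most like Ddost (0.993), Cox14 (0.991) and Rpl31-ps8 (0.988), the last a pseudogene whose count is uncertain. For Il3ra the genes were Csnk1g2 (0.992), Htra2 (0.973) and Tpst2 (0.970), for Csf2rb Nol12 (0.994), Cherp (0.988) and Zfp707 (0.987), and for Csf2rb2 Chd3 (0.997), H2-T23 (0.985) and Phrf1 (0.982). Flt3 was most like Noc4l (0.989), Zfp629 (0.987) and Gm11539 (0.981), and Il6ra most like Hyal1 (0.987), Faf2 (0.975) and Rnaseh2a (0.974). With so many candidate genes and 6 libraries of 2 groups, these values are a description.

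Of 10 ligand genes of blood cytokine receptors, 9 were found by symbol and 2, Csf1 and Il6, were tested. The other ligand genes found were too low to be tested. Flt3l, which encodes FLT3 ligand, was not found by symbol, so its level is not known. Csf2, Csf3 and Il3 had 0 reads in all 6 libraries. So did Thpo, whose receptor is not among those followed here. Csf1, which encodes M-CSF, was the ligand that passed, at 43.7, 66.6 and 78.8 normalized counts in knockout-labelled libraries, against 226, 151 and 127 in control libraries, 2.63-fold lower (limma adjusted p = 0.00921). Without control replicate 1 its limma adjusted p was 0.05 and it no longer passed. Il6, the ligand of IL6RA, stood at 8.53, 1.04 and 13.7 in knockout-labelled and 16.9, 19.1 and 31.2 in control libraries (limma adjusted p = 0.119).

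Among 25 tested genes of other cytokine receptors of blood cells, 6 rose and 7 fell in the knockout-labelled libraries, with a median log2 fold change of -0.30 against 0.01 over all genes tested. Of all genes tested, 11.8% rose and 15.0% fell. Without knockout-labelled replicate 2, control replicate 1 or control replicate 2 the number that fell was 4, and without control replicate 3 the number that rose was 3. The interferon-gamma receptor chains moved in opposite directions. Ifngr1, the binding chain, rose 2.08-fold, at 35744 to 40518 normalized counts in knockout-labelled and 17641 to 19424 in control libraries (limma adjusted p = 6.69e-05), and Ifngr2 fell 1.67-fold, at 1061 to 1388 in knockout-labelled and 1978 to 2161 in control libraries (0.00238). Epor, the erythropoietin receptor, stood at 102, 106 and 185 in knockout-labelled and 29.3, 27.7 and 34.8 in control libraries, a rise of 4.05-fold (limma adjusted p = 0.00168). Il17ra, a chain of IL-17 receptors, rose 1.65-fold (0.00199). Crlf2, a chain of the thymic stromal lymphopoietin receptor, rose 2.03-fold (limma adjusted p = 0.0161), a call lost without knockout-labelled replicate 2 (0.0670), without control replicate 3 (0.0659) and after GC and length correction (0.105). Beside Il6st, Ifnar2, a chain of the type I interferon receptor, fell 1.50-fold (limma adjusted p = 0.00787).

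Downstream of the receptors, 3 of 24 tested kinases, adaptors and STAT factors rose and 6 fell, with a median log2 fold change of -0.07. The background over all genes tested was 11.8% higher and 15.0% lower. Without knockout-labelled replicate 1, 5 rose, and without control replicate 2 or 3, 3 fell. The adaptor gene Gab2 rose (log2 fold change 0.90, limma adjusted p = 0.00891). Stat3, the main STAT of G-CSF and IL-6 signalling, stood at 1462, 1818 and 2554 normalized counts in knockout-labelled and 1298, 1234 and 1235 in control libraries (log2 fold change 0.59, limma adjusted p = 0.0300). That call was lost on leaving out any library other than knockout-labelled replicate 1 (0.0620 to 0.0923). The receptor-bound kinase gene Jak1 fell (log2 fold change -0.56, limma adjusted p = 0.00445). The RAS activator gene Sos1 fell (-1.15, 0.0111; 0.0524 without control replicate 3), as did Pik3ca, a catalytic subunit of PI3 kinase (-0.77, 0.0150; 0.0802 without control replicate 2 and 0.0917 after GC and length correction). Stat5a and Stat5b, which serve GM-CSF and IL-3, had log2 fold changes of 0.25 and -0.46 and did not pass (limma adjusted p = 0.403 and 0.0641).

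Of 22 negative regulators of these receptors 2 rose and 2 fell, with a median log2 fold change of -0.04. Over all genes tested, 11.8% rose and 15.0% fell. On leaving out control replicate 1, 2 or 3, the number that fell was 1. Cish, which STAT5 induces and which restrains it, stood at 114, 143 and 154 normalized counts in knockout-labelled libraries, against 88.0, 63.1 and 54.4 in control libraries (log2 fold change 1.01, limma adjusted p = 0.0268). That call was lost without knockout-labelled replicate 2 or 3 and without control replicate 2 or 3 (0.0703 to 0.102). Socs2, of the same family, stood at 17.1, 28.1 and 56.0 in knockout-labelled and 17.8, 2.87 and 0 in control libraries, with overlapping groups (limma adjusted p = 0.0475), and was lost in edgeR (0.113), in DESeq2 (0.0718) and on leaving out any library other than control replicate 1 (0.0591 to 0.153). Socs5, also of that family, fell 6.26-fold, at 20.3, 13.5 and 17.1 in knockout-labelled and 76.4, 133 and 132 in control libraries (limma adjusted p = 0.000657). Ptprc, which encodes the phosphatase CD45, had a log2 fold change of -0.40 (limma adjusted p = 0.0279), which was -0.09 after GC and length correction (0.581) and did not pass without knockout-labelled replicate 3 or any 1 control replicate (0.0553 to 0.100).

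Among 14 genes that these cytokines induce, 3 rose and 1 fell, with a median log2 fold change of 0.26, and 1 rose without knockout-labelled replicate 3, control replicate 2 or control replicate 3. The shares over all genes tested were 11.8% higher and 15.0% lower. Id1, an inhibitor of helix-loop-helix factors, stood at 532, 622 and 642 normalized counts in knockout-labelled libraries, against 226, 334 and 296 in control libraries (log2 fold change 1.08, limma adjusted p = 0.00189). The kinase gene Pim1, a STAT target, stood at 80.0, 80.2 and 176 in knockout-labelled and 45.3, 35.4 and 34.8 in control libraries (log2 fold change 1.42, limma adjusted p = 0.0176), and the call was lost without knockout-labelled replicate 3 (0.0648), control replicate 2 (0.0561) or control replicate 3 (0.0560). In Id1 and Pim1, and in Bcl2l1 and Spry2 of the same list, every knockout-labelled value was above every control value. That held for 20.4% of all genes tested, and Spry2 did not pass (limma adjusted p = 0.309). Bcl2l1, which encodes the survival protein BCL-XL, stood at 579, 682 and 753 in knockout-labelled and 466, 487 and 454 in control libraries (log2 fold change 0.51, limma adjusted p = 0.0337), and did not pass on leaving out any library other than knockout-labelled replicate 1 (0.0758 to 0.114). Dusp6, a phosphatase that ERK signalling induces, fell (log2 fold change -0.96, limma adjusted p = 0.0104; 0.0598 without control replicate 3). The growth regulator Myc, the survival gene Mcl1 and the cyclin gene Ccnd2 did not pass, with log2 fold changes of 0.16, 0.14 and 0.20.

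**Figure D4:**
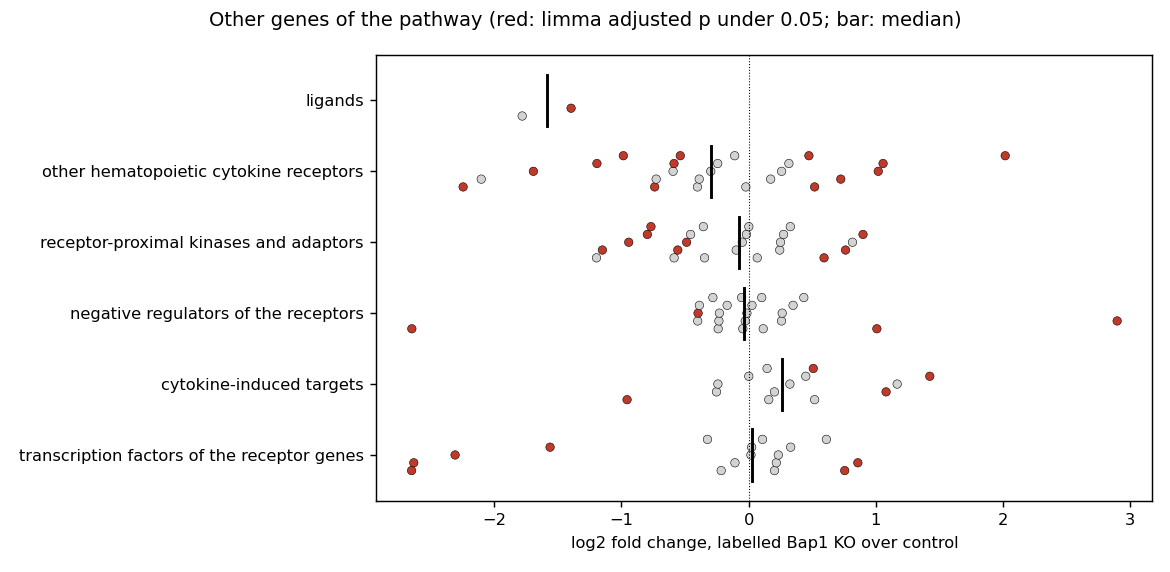
Log2 fold changes (x axis, knockout-labelled over control) of the tested genes of 6 lists around the receptors (rows), each point a gene, red where limma's adjusted p was under 0.05 and grey elsewhere, with a bar at the list's median. Medians lie between -1.59 (2 tested ligands) and 0.26 (cytokine-induced targets).

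Of 17 tested transcription factors that act on these receptor genes or their lineages 2 rose and 4 fell, with a median log2 fold change of 0.02. All genes tested gave 11.8% higher and 15.0% lower. Spi1, which encodes PU.1, stood at 3650.3, 5384 and 2940.4 normalized counts in knockout-labelled libraries, against 2979, 3101 and 3147 in control libraries (limma adjusted p = 0.206). Cebpa and Runx1, which act with PU.1 on myeloid receptor genes, did not pass either (0.374 and 0.269). Irf8, a factor of monocytes and dendritic cells, stood at 1238, 2361 and 587 in knockout-labelled and 6208, 5914 and 5677 in control libraries, 4.95-fold lower (limma adjusted p = 0.000833). Among the knockout-labelled libraries the receptor genes Csf1r, Csf2ra, Csf3r and Il3ra were each highest in replicate 2 and lowest in replicate 3. So were the factor genes Irf8, Spi1, Klf4, Zeb2, Runx1, Cebpb and Cebpe, but not the other tested factors of the list. Cebpa, Ets2, Myb, Hoxa9, Meis1, Gata1 and Gata2 were highest in replicate 3, and Cbfb, Gfi1 and Fli1 in replicate 1. The share of all genes highest in replicate 2 and lowest in replicate 3 was not counted. A link between factor and receptor levels was not tested. Klf4, a monocyte factor, fell 6.27-fold (limma adjusted p = 0.00578), Zeb2, a factor of monocytes and dendritic cells, 2.95-fold (3.58e-05), and the homeobox gene Hoxa9 6.20-fold (0.000199). The granulocyte factor genes Gfi1 and Cebpe rose 1.69-fold (limma adjusted p = 0.00451) and 1.81-fold (0.00914). Cebpe stood at 2241, 4057 and 2229 in knockout-labelled and 1560.2, 1505 and 1448 in control libraries. These 6 calls held under all 16 alternative settings.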

How the data were processed

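RNA of sorted GMPs was amplified with a low-input kit before sequencing, without molecular identifiers, per the labels' protocols. The submitters' processing notes name STAR, BWA 0.7.5a, Picard, HTSeq and DESeq2 and the builds mm9 and NCBIM37. The deposited values are a signal, gene counts that the authors divided by 1 size factor per library: dividing by the value of 1 read gave whole reads within 0.01 for 100% of values. The 5 rows that name no gene were left out; they held reads outside genes (38.4 to 40.9% of all reads) and reads with several alignments (26.8 to 28.8%). Depth was 19464353 to 25901725 gene reads per library.

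The main test was limma 3.58.1 (R 4.3.3) with a trend on log2(value + 1), which understates changes of low genes, over 14391 genes with a mean of at least 10, with Benjamini-Hochberg adjustment and a threshold of 0.05. Alternatives were other pseudocounts, filters and scalings, a GC and length correction, edgeR 4.0.16 and DESeq2 1.42.0 on the recovered reads, a replicate block, sex as a covariate (added after the data were seen) and leaving out each library. Of these fits only the main limma fit was tested on simulated data. The members and lists were chosen with earlier results of these data known. Named genes are the members, Bap1, the list genes that passed (the 4 with the lowest p per direction where more did), others needed for their role, and the 3 genes most like each member. Exon lengths and identifiers came from GENCODE M21 on GRCm38, promoter sequences from RefSeq. Some list genes that this rule names are not reported here.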

Additional observations from a re-analysis of the deposited data

How the results depend on the processing

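Csf1r stayed lower and past the threshold under all 16 alternatives (log2 fold change -2.82 to -2.02). Csf3r, Csf2ra, Csf2rb2 and Il3ra passed under none. Flt3 passed after GC and length correction (0.64), in DESeq2 (0.64) and with sex as a covariate (0.56), an alternative chosen after seeing the data, each making 1 receptor gene higher. In DESeq2 Il6ra also passed (-0.61), making 2 lower. Leaving out each library in turn, log2 fold changes ran from -0.10 to 0.42 for Csf2ra (-0.10 without knockout-labelled replicate 2), from 0.17 to 0.52 for Csf2rb, from -0.62 to -0.07 for Csf2rb2, from 0.14 to 0.49 for both beta chains summed (passing without knockout-labelled replicate 1), from -0.76 to -0.39 for Il6ra, and from -0.22 to 0.49 for Il3ra (-0.22 without knockout-labelled replicate 2, -0.05 without control replicate 3). Receptor genes called higher numbered 0 to 1. Il3ra was also below 0 after GC and length correction (-0.11). The cause of these changes was not tested. With longest-transcript lengths the levels per kilobase were 438 (Csf2rb) and 220.5 (Flt3) in knockout-labelled libraries, and 945 (Csf2ra), 483 (Csf1r), 347 (Csf2rb) and 142 (Flt3) in control libraries. Over all genes the correction gave 2591 higher and 1985 lower calls, 43.4% lower against 56.1% in the uncorrected fit. Leaving out a library gave 1058 to 1796 higher and 1413 to 2354 lower calls.

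Samples with the same replicate number did not deviate together (r = -0.10, 0.04 and -0.06), so the numbers were not taken as pairs. These values cannot show whether such samples shared a batch. Each group has only 3 libraries, and the sexes differ within replicates 1 and 3. With the replicate block 1550 genes were higher and 2014 lower, and no receptor gene changed its call. The block gave 1 higher and 1 lower negative regulator, 5 higher and 1 lower neutrophil genes, 2 higher eosinophil genes, and 4 higher and 2 lower erythroid and megakaryocyte genes.

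List counts moved by over 1.5 times as follows. Negative regulators called higher were 1 with a pseudocount of 0.5, without the filter, with a mean of at least 50, in edgeR and in DESeq2, and 1 was lower after GC and length correction, which also gave 5 higher transcription factors. Neutrophil genes called lower were 1 with a pseudocount of 4, a mean of at least 50, quantile normalization or sex as a covariate. Dendritic cell genes called lower were 4, and B lymphoid genes 3, with a mean of at least 50. Dendritic and stem cell genes called higher were 1 each (Flt3) after GC and length correction, in DESeq2 and with sex as a covariate. Erythroid and megakaryocyte genes called lower were 2 with a pseudocount of 4, after GC and length correction and with sex as a covariate, which gave 4 higher.

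Leaving out each library in turn, the ligands called lower were 0 to 1. Other receptors were 3 to 6 higher and 4 to 10 lower, kinases and adaptors 2 to 5 higher and 3 to 6 lower, negative regulators 0 to 2 higher and 1 to 3 lower, and induced targets 1 to 4 higher and 0 to 1 lower. Granule and gate genes were 2 to 5 higher, neutrophil genes 2 to 8 higher and 0 to 2 lower, monocyte genes 1 to 2 higher, dendritic cell genes 4 to 7 lower, basophil and mast cell genes 0 to 1 higher, eosinophil genes 1 to 2 higher, and erythroid and megakaryocyte genes 1 to 4 higher and 1 to 2 lower. Of 81 list genes that passed, 53 passed under every alternative.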
